A study of Mus musculus with 19 samples.

Results

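Blastoids harvested on day 5 of culture were compared with the untreated stem cell culture on a flat dish, using 5 of the 19 libraries of the study: 3 of day 5 blastoids and 2 of untreated 2D cells, chosen by their labels. All libraries came from TT2, a mouse embryonic stem cell line, and were made with the Smart-seq2 protocol from polyadenylated RNA. The day 5 libraries are labelled as TT2 cells treated with PlaB (pladienolide B, an inhibitor of the SF3B complex of the spliceosome; 20 nM, 6 h) and then kept for 5 days in 3D microwells as blastoids. The control libraries (54h_Ctrl) are labelled as TT2 cells with no treatment, taken 54 h after seeding on a layer of inactivated mouse embryonic fibroblasts, called feeders. Treatment, culture format, time, feeders and count table therefore change together, and their parts in a difference cannot be told apart. The comparison asks how the RNA of the finished structure differs from that of an untreated culture of the same stem cell line. The labels do not state whether each library had its own culture. The p-values, whose spread was estimated from all 19 libraries, therefore reflect variation among libraries, part or all of which may be technical.

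In the mouse blastocyst an outer epithelium, the trophectoderm, surrounds a fluid-filled cavity and the inner cell mass, which in turn divides into the epiblast and the primitive endoderm. The trophectoderm seals its cells with tight junctions, builds keratin filaments, pumps sodium and water inwards and later forms the placenta, while the epiblast keeps the pluripotency genes that stem cells in culture also use. A blastoid is an aggregate of stem cells that takes on the outline of a blastocyst, and bulk RNA from it mixes all of its cells.

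The day 5 libraries held 5330755, 4093751 and 5523515 counts and the control libraries 4118725 and 3909958. Mitochondrially encoded genes took 4.03% ± 0.606 of the counts on day 5 and 5.96% ± 0.310 in control (mean ± SD, n = 3 and n = 2). The 36 feeder fibroblast markers summed to 629 to 682 CPM (read counts scaled by library size and TMM factor) on day 5, against 9534 and 10903 CPM in control. For GC content, log2 levels were first centred gene by gene across the 19 libraries. The median centred level of high-GC genes minus that of low-GC genes lay between -0.58 and 0.17 on day 5. In control this difference was -0.93 and -0.78. These values place each library relative to the whole series and do not compare the expression of high-GC and low-GC genes. What part the mitochondrial share and the feeder RNA have in the differences below was not tested. Depth and GC content were varied by refitting with counts thinned to the smallest total and with GC correction. Those fits called 2732 and 2934 genes higher and 2412 and 2481 lower, against 2932 and 2526 in the main fit. In the control libraries the stem cell label was borne out by Nanog, Zfp42, Tdgf1 and Dppa5a, which averaged 193, 305, 908 and 20499.8 CPM, while Pou5f1 stood at 2 counts in either control library.

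Day 5 blastoids held more RNA of junction, keratin, trophectoderm and placental genes than 2D control and less of fibroblast genes. Naive and general pluripotency genes were more often lower than higher, with 14 lower, 3 higher and 19 not passing of 36. Of 16304 genes tested, 2932 were higher on day 5 (18.0%) and 2526 were lower (15.5%), by edgeR's quasi-likelihood test at an adjusted p under 0.05. This test and adjustment stand behind every adjusted p below, and every fold change is day 5 over control unless another group is named. The median log2 fold change of all tested genes was 0.13. The shares of 18.0% and 15.5% are the background for the counts of list members over control below. At least a 2-fold change was seen for 2300 of the higher and 2085 of the lower genes. All 3 day 5 libraries lay above both control libraries for 5156 genes (31.6%) and below both for 4364 (26.8%). Fewer genes were called in each direction with any 1 of the 5 libraries left out. The drop was larger without a control library than without a day 5 library, so both numbers rest most on having both controls. In 7 gene lists described below no member passed in 1 of the directions; 3 of their 181 members did so at an unadjusted p under 0.05, 1 by DESeq2 and 1 by limma-voom. In bulk samples, fewer cells of a type and less RNA per cell cannot be told apart, and this holds for every gene group below.

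**Figure D1:**
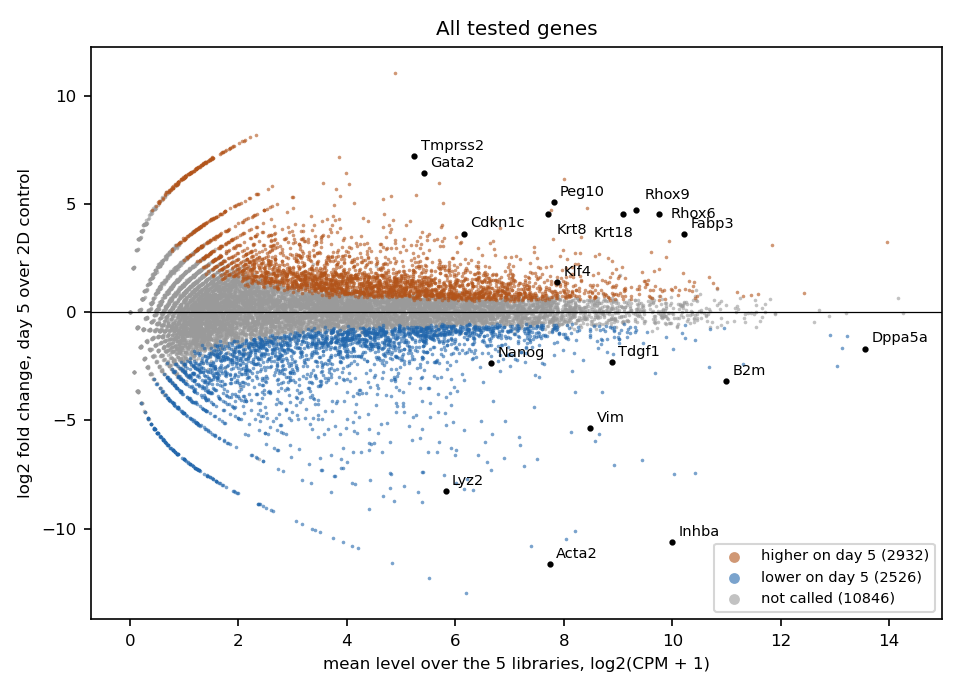
Each point is a tested gene, with its mean level over the 5 libraries (log2 of CPM plus 1) on the horizontal axis and its log2 fold change, day 5 over 2D control, on the vertical axis; orange genes (2932) were higher and blue genes (2526) lower on day 5. Keratins and Rhox genes lie high on the upper right, and feeder genes such as Acta2 and Inhba lie near the lower edge.

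Epithelial junction and polarity genes rose almost without exception. Of 35 tested members of this list, 34 were higher on day 5 and none was lower, with a median log2 fold change of 2.67. Cingulin (Cgn), which links tight junctions to the cytoskeleton, measured 51.7, 47.3 and 59.9 CPM on day 5, against 4.84 and 1.62 CPM in control. Cldn7, a claudin of the tight junction strand, measured 38.8, 55.7 and 74.3 CPM on day 5, against 4.08 and 1.89 CPM in control. Every day 5 library exceeded every control library for both genes, by 4.01 ± 0.42 (SE, adjusted p = 7.40e-08) for Cgn and 4.22 ± 0.46 (SE, adjusted p = 1.28e-07) for Cldn7 on the log2 scale. Occludin (Ocln) measured 54.8, 38.4 and 40.4 CPM on day 5, against 4.84 and 3.78 CPM in control (log2 fold change 3.36 ± 0.38 SE, adjusted p = 2.49e-07).

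E-cadherin (Cdh1), the main adhesion protein of embryonic epithelia, was already abundant in the stem cell culture and still rose. It measured 504, 374 and 419 CPM on day 5, against 107 and 77.2 CPM in control, with no overlap between the groups (log2 fold change 2.23 ± 0.35 SE, adjusted p = 2.84e-05). Elf3, an epithelial transcription factor, reached 42.7 CPM on day 5 and 3.26 CPM in control (log2 fold change 3.70 ± 0.39 SE, adjusted p = 9.45e-08). Among polarity genes, Pard6b, a partner of atypical protein kinase C at the apical membrane, averaged 44.7 and 5.63 CPM, and Amot, a Hippo pathway scaffold at junctions, 159.8 and 25.2 CPM, on day 5 and in control. The claudins did not move as one. Of 33 claudin symbols 8 were tested, and 5 were higher (Cldn3, Cldn4, Cldn6, Cldn7 and Cldn15) and 1 lower (Cldn12). The Cldn12 call was lost at an adjusted p of 0.0643 with control replicate 1 left out, and that of Cldn15 at 0.1 with control replicate 1 left out and 0.0928 with control replicate 2 left out. Cldn3 had 114 counts over the day 5 libraries and 1 count in control, a ratio of 62.5 (95% counting interval 11 to 2490). Among the 35 tested members of the junction list, the one that did not pass was Cdh3, P-cadherin, with 1.45, 1.31 and 1.52 CPM on day 5, against 0.510 and 0.810 CPM in control (adjusted p = 0.36). Tjp1, the scaffold ZO-1, was called at a log2 fold change of 0.86 but the call was lost at an adjusted p of 0.0513 with total counts in place of TMM, 0.0681 in a fit of the 5 libraries alone, 0.319 with control replicate 2 left out and 0.272 with day 5 replicate 1 left out.

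Keratin and desmosome genes were also higher. Among 14 tested members 11 were higher, 1 was lower and the median log2 fold change was 3.03. Krt8 (chr15:101996698-102004482) and Krt18 (chr15:102028180-102032027), the partner keratins of the trophectoderm, are neighbours on chromosome 15 (GRCm38). Krt18 measured 741, 597 and 1294 CPM on day 5, against 26.3 and 49.7 CPM in control, and Krt8 309.5, 237 and 466 CPM on day 5, against 12.5 and 16.2 CPM in control. Day 5 replicate 3 was the highest library for both, and the lowest day 5 library lay more than 10 times above the highest control library. The log2 fold changes were 4.53 ± 0.40 (SE, adjusted p = 3.11e-09) for Krt18 and 4.56 ± 0.39 (SE, adjusted p = 2.04e-09) for Krt8; 5.16% of the exonic bases of Krt8 are shared with an overlapping gene model. Krt7 averaged 84.96 CPM on day 5 and 5.16 CPM in control, and Krt19 43.5 and 3.04 CPM. Desmoplakin (Dsp), which anchors keratins at the desmosome, rose (log2 fold change 3.20 ± 0.39 SE, adjusted p = 6.20e-07). The lower member was Krt42, at 12 counts over the day 5 libraries and 25 over the controls; its adjusted p was 0.0339, but 0.355 with control replicate 2 left out, 0.124 with day 5 replicate 1 left out and 0.0943 with day 5 replicate 2 left out. Plakoglobin (Jup) had a log2 fold change of 1.05 and did not pass (adjusted p = 0.0679).

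Genes for moving ions and water had fewer calls. Of 18 fluid transport genes 12 were tested, 5 were higher and none lower, and the median was 0.78. The higher count fell to 3 and 2 with control replicate 1 or 2 left out and to 3 without day 5 replicate 1 or 3, and 2 genes were lower without day 5 replicate 1. Atp1b1, the beta subunit of the sodium pump that fills the blastocyst cavity, measured 84.5, 87.02 and 92.6 CPM on day 5, against 26 and 26.7 CPM in control (log2 fold change 1.74 ± 0.26 SE, adjusted p = 1.65e-05). Slc12a7, a potassium-chloride cotransporter, averaged 19.9 and 2.87 CPM on day 5 and in control (log2 fold change 2.78 ± 0.38 SE, adjusted p = 3.19e-06). The water channel Aqp3 measured 7.27, 9.93 and 11.6 CPM on day 5, against 8.16 and 5.67 CPM in control, and the groups overlapped (adjusted p = 0.42).

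The list called trophectoderm factors, which holds transcription factors but also receptors and other genes, rose in part. Of 39 listed genes 36 were tested, 23 were higher, 4 lower and 9 did not pass, with a median log2 fold change of 1.80. Gata2 (chr6:88193891-88207032), a GATA factor of trophoblast, measured 91.1, 52.8 and 64.2 CPM on day 5, against 0.255 and 1.35 CPM in control (log2 fold change 6.42 ± 0.48 SE, adjusted p = 2.62e-10). Gata3 measured 46.7, 25.3 and 20.1 CPM on day 5, against 3.06 and 3.51 CPM in control and rose by 3.22 ± 0.42 (SE, adjusted p = 1.94e-06) on the log2 scale. The AP-2 factor Tfap2c, which stem cells share with trophoblast, measured 64.6, 35.3 and 41.5 CPM on day 5, against 20.1 and 17.3 CPM in control and rose by 1.33 ± 0.32 (SE, adjusted p = 0.00208). For all 3 factors the groups did not overlap, and day 5 replicate 1 held the highest value.

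Other higher members included Id2 (a helix-loop-helix inhibitor seen early in trophectoderm), Fabp3 (a fatty acid carrier) and Fgfr2 (the receptor through which trophoblast receives FGF4). Id2 averaged 669.9 ± 44.6 CPM on day 5 and 116 ± 11.9 CPM in control (SD). Fabp3 averaged 1886 ± 201 CPM on day 5 and 154 ± 14.2 CPM in control (SD). Fgfr2 averaged 42.2 CPM on day 5 and 7.47 CPM in control. Hand1 and Ascl2, which act in giant cells and spongiotrophoblast, also rose, to 18.8 CPM on day 5 for Hand1, against 3.55 CPM in control, and 11.97 CPM for Ascl2, against 1.57 CPM. Esx1, an X-linked placental homeobox gene, had 61 counts on day 5 and 0 in control, at least 11.1-fold higher with a floor of 3 counts over the control group.

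Several defining factors were near 0 or did not pass. Cdx2, the homeobox factor that sets the trophectoderm apart in the embryo, had 1 count over the 3 day 5 libraries and 0 in control, and Elf5 had 12 counts and 1 count; neither was tested. Eomes, a T-box factor of trophoblast stem cells, measured 2.49, 2.09 and 3.22 CPM on day 5, against 4.33 and 3.24 CPM in control (adjusted p = 0.415). Tead4, which acts upstream of Cdx2, measured 4.57, 8.89 and 14.02 CPM on day 5, against 6.88 and 5.13 CPM in control and overlapped between groups (adjusted p = 0.292). A count of 0 in all libraries of a group allows a level of up to 3 counts, which is 0.215 CPM over the 3 day 5 libraries and 0.393 CPM over the 2 controls. The 4 lower members were Ly6a, Tspan8, Ddah1 and Fgfr1, with log2 fold changes of -2.99, -2.94, -2.29 and -1.32; the Tspan8 call was lost at an adjusted p of 0.125 with control replicate 1 left out, 0.0564 with day 5 replicate 1 left out and 0.065 with day 5 replicate 3 left out.

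Promoters of higher genes were searched, on both strands, for the AP-2 motif GCCNNNGGC and the TEAD motif GGAATG, since Tfap2c rose and TEAD factors act in trophectoderm. The sequences run from 250 bases before to 50 after the gene start (RefSeq, GRCm38.p6), read on the gene's strand, with motif matches in capitals. They are shown for Gata3, Krt18 and Cldn3, higher genes of 3 different groups that hold the AP-2 letters, and for Elf3, which holds the TEAD letters. Gata3 lies at chr2:9878551-9878850 on the minus strand, Krt18 at chr15:102027966-102028265 and Cldn3 at chr5:134985964-134986263 on the plus strand, and Elf3 at chr1:135258423-135258722 on the minus strand.
Gata3: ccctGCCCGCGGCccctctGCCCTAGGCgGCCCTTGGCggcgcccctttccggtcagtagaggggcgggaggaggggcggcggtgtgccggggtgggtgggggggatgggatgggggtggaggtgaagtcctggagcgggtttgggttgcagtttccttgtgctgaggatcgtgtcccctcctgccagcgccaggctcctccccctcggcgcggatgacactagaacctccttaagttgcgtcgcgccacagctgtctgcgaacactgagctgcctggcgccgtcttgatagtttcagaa
Krt18: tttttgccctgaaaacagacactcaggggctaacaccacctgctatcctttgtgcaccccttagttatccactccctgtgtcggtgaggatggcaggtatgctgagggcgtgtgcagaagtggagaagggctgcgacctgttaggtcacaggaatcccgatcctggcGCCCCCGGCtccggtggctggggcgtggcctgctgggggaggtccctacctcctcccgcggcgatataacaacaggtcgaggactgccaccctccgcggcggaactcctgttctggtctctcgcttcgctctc
Cldn3: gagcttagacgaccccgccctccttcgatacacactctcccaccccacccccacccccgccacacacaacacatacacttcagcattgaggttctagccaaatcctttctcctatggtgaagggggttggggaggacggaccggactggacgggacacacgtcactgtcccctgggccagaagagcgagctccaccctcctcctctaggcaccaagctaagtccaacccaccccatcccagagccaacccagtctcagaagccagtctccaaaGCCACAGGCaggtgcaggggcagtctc
Elf3: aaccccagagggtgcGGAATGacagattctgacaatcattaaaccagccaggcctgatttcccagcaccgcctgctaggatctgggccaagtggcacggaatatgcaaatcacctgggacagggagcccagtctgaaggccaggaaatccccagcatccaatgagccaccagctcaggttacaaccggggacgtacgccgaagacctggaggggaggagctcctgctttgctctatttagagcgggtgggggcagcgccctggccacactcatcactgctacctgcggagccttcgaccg
The Gata3 window holds 3 AP-2 matches and the windows of Krt18 and Cldn3 1 each, while that of Elf3 holds 1 TEAD match. The AP-2 letters occurred in 6 of 16 higher trophectoderm genes with a promoter in the table, 3 of 4 keratin and desmosome genes and 11 of 25 junction genes. Across 10898 tested genes with a promoter 27.8% held them, across the 2121 higher genes 29.8%, and across all 27025 promoters 18.5%. The TEAD letters occurred in 1 of 16, 0 of 4 and 5 of 25 of the same groups, against 14.7% of tested genes, 13.3% of higher genes and 16.6% of all promoters. A match is a run of letters and says nothing of binding.

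**Figure D2:**
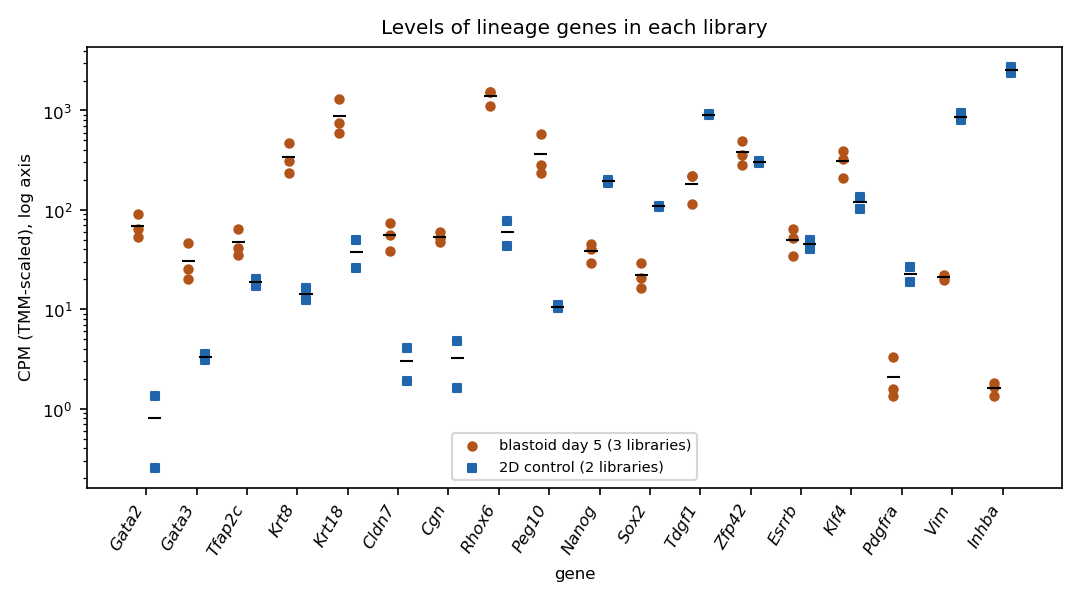
Levels (CPM after TMM scaling, log axis) of 18 lineage genes in each library, with day 5 blastoids (orange circles, 3 libraries) left of 2D control (blue squares, 2 libraries) and a bar at each mean. The groups stand apart for the trophoblast and epithelial genes and for Nanog, Sox2 and Tdgf1, and overlap for Zfp42 and Esrrb.

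Part of the placental list was higher on day 5. Among 30 listed genes 18 were tested, 12 were higher and 2 lower, and the median log2 fold change was 2.37. Rhox6 (chrX:37826910-37829857), an X-linked homeobox gene of the placenta, measured 1530.3, 1114 and 1527 CPM on day 5, against 42.8 and 77.4 CPM in control. Rhox9 (chrX:37899097-37901770) measured 1072, 858 and 1205 CPM on day 5, against 24.7 and 53.4 CPM in control. The lowest day 5 library lay more than 10 times above the highest control library for both, with log2 fold changes of 4.53 ± 0.39 (SE, adjusted p = 2.28e-09) and 4.74 ± 0.43 (SE, adjusted p = 9.01e-09). Of 34 Rhox symbols only 5 were tested; Rhox5 also rose (log2 fold change 2.60), Rhox13 did not pass (adjusted p = 0.732) and Rhox10 fell to 2 counts on day 5, against 65 in control, a ratio of control to day 5 of 59.3 (95% counting interval 15.8 to 500). Rhox genes have near-identical copies, so their counts are uncertain.

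Peg10, a paternally expressed gene of retroviral origin that the placenta needs, measured 578, 285 and 234 CPM on day 5, against 10.2 and 11.1 CPM in control (log2 fold change 5.10 ± 0.40 SE, adjusted p = 6.00e-10). Plac1, a surface protein of trophoblast, averaged 179 ± 69.8 CPM on day 5 and 12.1 ± 3.83 CPM in control (SD) (log2 fold change 3.88 ± 0.43 SE, adjusted p = 2.27e-07). Gcm1, the factor of the labyrinth, rose with 12.7, 6.01 and 9.85 CPM on day 5, against 1.27 and 0 CPM in control. The giant cell hormone Prl3d1 had 3 counts in each group, and the spongiotrophoblast marker Tpbpa 0 counts in every library. The lower members were Plac8, which averaged 45.3 CPM on day 5 and 181 CPM in control, and Prl8a9, whose adjusted p of 0.0143 became 0.0653 by DESeq2, 0.116 with control replicate 2 left out and 0.0516 with day 5 replicate 1 left out. The count of lower placental genes was then 1.

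The Serpinb9 cluster on chromosome 13 encodes protease inhibitors, several of them placental. Of its 7 genes 6 were higher, with a median log2 fold change of 5.05. Serpinb9e measured 146, 71.6 and 44.7 CPM on day 5, against 2.80 and 2.43 CPM in control (log2 fold change 5.05 ± 0.76 SE, adjusted p = 5.46e-05), and Serpinb9d had 309 counts on day 5 and 1 in control. Day 5 replicate 1 was the highest and replicate 3 the lowest library for Serpinb9d, Serpinb9e, Serpinb9f and Serpinb9g. Serpinb9 itself, known from cytotoxic lymphocytes as the granzyme B inhibitor, measured 21.4, 16.7 and 10.4 CPM on day 5, against 9.68 and 18.1 CPM in control and did not pass (adjusted p = 0.662). The genes are close copies, and the calls of Serpinb9c and Serpinb9d were lost at adjusted p-values of 0.0899 with control replicate 1 left out and 0.0635 with control replicate 1 left out.

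Imprinted genes, which are expressed from the copy of 1 parent, included several that rose together with Peg10. Over all tested genes 18.0% were higher and 15.5% lower. Of 26 tested members 11 were higher, 2 lower and 13 did not pass, with a median of 0.39; without control replicate 1, 7 were higher, and without control replicate 2, 1 was lower. Cdkn1c, the maternally expressed cell cycle inhibitor p57, measured 115, 118 and 101 CPM on day 5, against 8.67 and 9.17 CPM in control (log2 fold change 3.64 ± 0.35 SE, adjusted p = 1.53e-08), although 30.7% of its exonic bases overlap another gene. Peg3 averaged 386 ± 206 CPM on day 5 and 52.4 ± 3.41 CPM in control (SD), Slc38a4, an amino acid carrier, 1178 ± 265 CPM on day 5 and 171 ± 15.6 CPM in control (SD), and the noncoding RNA Kcnq1ot1 605 ± 264 CPM on day 5 and 93.6 ± 6.78 CPM in control (SD). H19 measured 46.1, 34.8 and 18.8 CPM on day 5, against 21.4 and 28.3 CPM in control and overlapped between groups (adjusted p = 0.67). Ndn fell to 3.49 CPM on day 5, against 19.7 CPM in control.

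Some pluripotency genes fell and others did not pass. All 36 listed naive and general pluripotency genes were tested, and 14 were lower, 3 were higher and 19 did not pass, with a median of -0.33. Nanog (chr6:122707489-122714633), the homeobox factor of the epiblast, measured 29.5, 40.2 and 44.9 CPM on day 5, against 201 and 185 CPM in control. Sox2, its partner at pluripotency enhancers, measured 20.8, 29.3 and 16.5 CPM on day 5, against 110.4 and 107 CPM in control. Tdgf1, the Nodal co-receptor Cripto, measured 116, 217 and 218 CPM on day 5, against 919 and 897 CPM in control. The groups did not overlap for any of the 3, and the log2 fold changes were -2.34 ± 0.24 (SE, adjusted p = 5.14e-08) for Nanog, -2.30 ± 0.33 (SE, adjusted p = 6.54e-06) for Sox2 and -2.31 ± 0.28 (SE, adjusted p = 7.78e-07) for Tdgf1. Dppa2 and Dppa5a fell by 1.88 and 1.68 on the log2 scale.

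Other naive genes did not pass or were higher. Zfp42 (Rex1) measured 285, 490 and 359 CPM on day 5, against 312 and 298 CPM in control (log2 fold change 0.31 ± 0.25 SE, adjusted p = 0.365), and Esrrb, an orphan nuclear receptor, 34.5, 51.7 and 63.8 CPM on day 5, against 50.2 and 40.7 CPM in control (log2 fold change 0.14 ± 0.27 SE, adjusted p = 0.723). The groups overlapped for both, and neither passed. Klf4, which is also active in epithelia, measured 325, 393 and 211 CPM on day 5, against 136 and 103 CPM in control and rose by 1.38 ± 0.32 (SE, adjusted p = 0.00165). Tfcp2l1 and Fbxo15 were called higher at 0.76 and 0.66, but the Tfcp2l1 call was lost at an adjusted p of 0.0565 with control replicate 1 left out and 0.113 with control replicate 2 left out. That of Fbxo15 was lost at 0.07 without a filter on low counts, 0.0521 with a replicate block, 0.137 with control replicate 1 left out, 0.183 with control replicate 2 left out and 0.106 with day 5 replicate 2 left out. The number of higher members was 1 with either control library left out, and 5 without day 5 replicate 1. Pou5f1, which encodes Oct4, had 8, 5 and 13 counts on day 5 and 2 and 2 in control (adjusted p = 0.0598). It shares 14.1% of its exonic bases with the gene model Gm19553, and the part of that overlap in its low count was not tested.

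Formative and primed genes, which mark the epiblast as it leaves the naive state, were mostly lower or not called. Of 15 tested, 7 were lower and 3 higher, with a median of -1.01; in a fit of the 5 libraries alone 4 were lower, and with either control library left out 1 was higher. Otx2, a head and epiblast factor, fell to 3.48 CPM on day 5, against 12.6 CPM in control (log2 fold change -1.85 ± 0.39 SE, adjusted p = 0.000728). Fgf5 had 0 counts in all day 5 libraries and 21 in control, at least 12.8-fold lower. Etv5 and Lin28b fell by 1.01 and 1.53. Cldn6 was the clearest higher member, at 58.5 and 11.5 CPM on day 5 and in control, and is also a junction gene.

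Primitive endoderm genes did not rise as a group. Of 39 listed genes 31 were tested, 6 were higher, 8 lower and 17 did not pass, with a median of -0.70. The background over all tested genes was 18.0% higher and 15.5% lower. The factors Gata4, Gata6 and Sox17, which specify this lineage, had 6 counts on day 5 and 2 in control, 38 counts on day 5 and 36 in control and 9 counts on day 5 and 2 in control (adjusted p = 0.759, 0.226 and 0.645). Pdgfra, an early endoderm receptor that fibroblasts express too, measured 3.32, 1.57 and 1.33 CPM on day 5, against 18.6 and 26.7 CPM in control (log2 fold change -3.43 ± 0.52 SE, adjusted p = 1.66e-05). Thbd and Fst, also fibroblast-expressed, fell with it, Thbd to 2 counts on day 5, against 533 in control, and Fst by 4.59. Sparc averaged 130 CPM on day 5 and 438 CPM in control. Among the higher members, Apoe measured 74.1, 116 and 290.2 CPM on day 5, against 17.8 and 24.3 CPM in control (log2 fold change 2.93 ± 0.46 SE, adjusted p = 3.41e-05) and Rhox5 and Amot stand in other lists as well. The feeder fibroblast markers fell across the same libraries, and their part in these falls was not tested. Of 8 tested mesendoderm and gastrulation genes, 1 was higher (Cdx1) and 1 lower (Mixl1), both with under 25 counts in either group (calls lost at an adjusted p of 0.0779 with GC correction, 0.0553 with both corrections, 0.0566 by DESeq2, 0.0906 with control replicate 1 left out, 0.227 with control replicate 2 left out, 0.0518 with day 5 replicate 1 left out and 0.149 with day 5 replicate 3 left out for Cdx1, and of 0.126 with control replicate 2 left out and 0.0705 with day 5 replicate 1 left out for Mixl1). The median of the list was -0.060, and Brachyury (T) had 9 counts on day 5 and 2 in control.

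Feeder markers had the lowest median of the 26 gene lists. Of 34 tested feeder markers 33 were lower and none higher, with a median log2 fold change of -4.11 (-4.74 without day 5 replicate 3). Vimentin (Vim), the intermediate filament of mesenchymal cells, measured 20.97, 19.9 and 21.98 CPM on day 5, against 798 and 933 CPM in control (log2 fold change -5.37 ± 0.34 SE, adjusted p = 1.81e-11). Col3a1 measured 3.94, 2.09 and 0.947 CPM on day 5, against 82.3 and 115 CPM in control, and Col1a1 had 3 counts on day 5 and 194 in control. Tagln and S100a4 had 0 counts in all day 5 libraries. Of the 36 markers, 7 still averaged at least 10 CPM on day 5 (Fn1, Vim, Dcn, Lox, Cald1, Tpm2 and Ccl2), against 28 in control. Tpm2, a tropomyosin, was the marker that did not pass, at 70.4, 58.5 and 80.9 CPM on day 5, against 70.3 and 119.5 CPM in control (adjusted p = 0.284, and 0.0172 with GC correction).

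Other steep falls were seen in genes of matrix, contractile and blood cells. Acta2, smooth muscle actin, measured 0.208, 0 and 0.189 CPM on day 5, against 426 and 637 CPM in control. Inhba (chr13:16011851-16031621), the subunit of activin A that feeder cells secrete, measured 1.66, 1.83 and 1.33 CPM on day 5, against 2390.3 and 2735 CPM in control (log2 fold change -10.64 ± 0.55 SE, adjusted p = 2.12e-12). Tnc, tenascin C of the matrix, and Serpinb2, a plasminogen activator inhibitor, fell by 10.48 and 10.11, and Tfpi2 had 3 counts on day 5 and 3203 in control. Wfdc17, Il1rl1, Pf4, Fgl2, Cd53 and Sprr2k had 0 counts in every day 5 library, at least 844-, 516-, 318-, 165-, 145- and 187-fold lower.

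Genes known from macrophages were also near 0 on day 5, with an exception. Lyz2, lysozyme of macrophages, had 0.415, 0 and 0.758 CPM on day 5, against 117 and 159 CPM in control. The pan-leukocyte gene Ptprc and the macrophage receptor Adgre1 had 2 counts each on day 5, against 44 and 43 in control, and the macrophage elastase Mmp12 had 3, against 777. Cd68, a lysosomal protein that is abundant in macrophages, went the other way, with 26.99, 20.6 and 37.5 CPM on day 5, against 4.84 and 7.56 CPM in control (log2 fold change 2.20 ± 0.38 SE, adjusted p = 9.20e-05). Of 15 genes for immune and other cells outside the embryo 8 were tested, with 3 lower, 1 higher and a median of -0.72 (-1.99 without day 5 replicate 2).

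The steepest falls among genes that still averaged at least 50 CPM on day 5 were those of Fstl1, Ifitm3, B2m, Cald1, mt-Rnr1 and Tmsb4x. Numbered gene models and pseudogenes were left out of this ranking. B2m, the light chain of MHC class I, measured 613, 516 and 317 CPM on day 5, against 4328 and 4434 CPM in control (log2 fold change -3.18 ± 0.30 SE, adjusted p = 1.04e-08). Tmsb4x, the actin-binding thymosin beta 4, measured 3431, 3566 and 1912 CPM on day 5, against 15245 and 17659.9 CPM in control (log2 fold change -2.47 ± 0.32 SE, adjusted p = 2.24e-06). The mitochondrial ribosomal RNA mt-Rnr1 averaged 571 ± 213 CPM on day 5 and 3252 ± 30.9 CPM in control (SD). Targets of the Hippo effector YAP, many of which fibroblasts express strongly, fell in 5 of 12 tested cases and rose in none, with a median of -0.71. Ctgf measured 28.02, 18.3 and 11.9 CPM on day 5, against 807 and 1128 CPM in control, and Axl fell to 17 counts on day 5, against 830 in control.

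The genes with the largest rises also included epithelial and signalling genes outside the lists. Tmprss2 (chr16:97564682-97611195), an epithelial serine protease, measured 64.1, 53.1 and 66.9 CPM on day 5, against 0.510 and 0.270 CPM in control, a count ratio of 158 (95% counting interval 53.9 to 768). Vgll1, a TEAD cofactor, had 354 counts on day 5 and 2 in control, a ratio of 97 (95% counting interval 26.7 to 804). Fam90a1b had 660 counts on day 5 and 0 in control, at least 121-fold higher, and has close copies that could share reads. Nxf7, of the nuclear RNA export family, averaged 83.8 ± 16.9 CPM on day 5 and 1.32 ± 0.424 CPM in control (SD). Mbnl3, a splicing regulator of the muscleblind family, averaged 352 ± 159 CPM on day 5 and 13.2 ± 0.763 CPM in control (SD) (log2 fold change 4.73 ± 0.38 SE, adjusted p = 9.21e-10). Dkkl1 and Arhgef16 had 253 and 301 counts on day 5, against 2 and 3 in control.

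Signalling targets moved in both directions, beside a background over all tested genes of 18.0% higher and 15.5% lower. The list of Wnt, Nodal, BMP and FGF targets had 24 tested members, 8 higher and 11 lower, with a median of -0.74. Among Nodal targets, Lefty2, a secreted Nodal inhibitor, measured 0.208, 0 and 1.14 CPM on day 5, against 55.6 and 34.3 CPM in control (log2 fold change -6.44 ± 0.66 SE, adjusted p = 8.88e-08), and Smad7 fell by 2.04. FGF and ERK feedback genes were divided. Dusp6, the ERK phosphatase, measured 20.8, 9.93 and 13.5 CPM on day 5, against 79.8 and 73.9 CPM in control (log2 fold change -2.37 ± 0.24 SE, adjusted p = 3.79e-08), and Dusp4 fell by 2.56. Of the Sprouty inhibitors, Spry1 was called higher at a log2 fold change of 1.78, a call lost at an adjusted p of 0.0794 with GC correction, 0.0735 with both corrections and 0.226 with control replicate 1 left out. Spry4 was called lower at -1.36, a call lost at 0.0753 with control replicate 2 left out and 0.0503 with day 5 replicate 1 left out, and Spry2 at -1.02, a call lost at 0.057 with a replicate block, 0.072 with both corrections, 0.102 with control replicate 1 left out, 0.142 with control replicate 2 left out, 0.077 with day 5 replicate 1 left out and 0.162 with day 5 replicate 3 left out. The BMP targets Id1 and Id3 were higher, with Id1 at 44.3 CPM on day 5 and 17.05 CPM in control (log2 fold change 1.38 ± 0.32 SE, adjusted p = 0.00152) and Id3 at 135 and 48.1 CPM; the Id3 call was lost at an adjusted p of 0.0922 with control replicate 1 left out. Axin2, a direct target and brake of Wnt signalling, measured 14.1, 17.5 and 13.8 CPM on day 5, against 1.02 and 1.62 CPM in control (log2 fold change 3.50 ± 0.53 SE, adjusted p = 1.65e-05), whereas the Wnt-responsive factor Lef1 fell by 1.60.

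Genes of the 2-cell stage are known to be induced when the spliceosome of stem cells is inhibited, and the list was read for that reason. For this list and the p53 targets the background over all tested genes was 18.0% higher and 15.5% lower. Of 22 tested genes of the 2-cell stage none was higher (1 without control replicate 1) and 1 was lower, and their median was 0.38. Zscan4c, of the telomere-associated Zscan4 cluster, measured 18.5, 33.5 and 48.1 CPM on day 5, against 35.2 and 26.2 CPM in control (log2 fold change 0.12 ± 0.77 SE, adjusted p = 0.922), and Zscan4d 14.3, 23.3 and 31.1 CPM on day 5, against 37.97 and 24.8 CPM in control. The groups overlapped for both, and the cluster's near-identical copies make single counts uncertain. The lower gene, Zfp352, had 3 counts on day 5 and 16 in control, and its adjusted p of 0.0415 became 0.082 with a replicate block, 0.0575 with GC correction, 0.105 with both corrections, 0.192 with control replicate 1 left out, 0.0726 with control replicate 2 left out, 0.126 with day 5 replicate 1 left out and 0.103 with day 5 replicate 3 left out. Among 31 tested p53 targets 9 were higher and 5 lower, with a median of 0.48; 1 and 3 were higher with control replicate 1 or 2 left out, and 4 without day 5 replicate 1. Mdm2, the ubiquitin ligase that degrades p53, rose by 0.92 ± 0.22 (SE, adjusted p = 0.0027) but the call was lost at an adjusted p of 0.0787 with control replicate 1 left out. Cdkn1a (p21) measured 116, 109 and 177 CPM on day 5, against 50.7 and 94.7 CPM in control (adjusted p = 0.0654). It passed in 3 alternatives, at 0.0103 without a filter on low counts, 0.0428 in a fit of the 5 libraries alone and 0.048 with control replicate 2 left out. Pmaip1 (Noxa), Fas and Tigar fell by 1.85, 3.36 and 1.39.

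Among 40 tested splicing factors 16 were higher and none lower, with a median of 0.18, close to that of all genes; 8 and 9 were higher with control replicate 1 or 2 left out. The kinases Clk1 and Clk4, which phosphorylate SR proteins, were among them. Clk1 measured 869, 708 and 554 CPM on day 5, against 233 and 214 CPM in control and Clk4 323, 243 and 239.7 CPM on day 5, against 85.9 and 73.9 CPM in control, with log2 fold changes of 1.67 ± 0.26 (SE, adjusted p = 2.69e-05) and 1.75 ± 0.24 (SE, adjusted p = 4.18e-06). Sf3b1, the subunit that PlaB binds, averaged 1153 ± 119.8 CPM on day 5 and 569 ± 3.32 CPM in control (SD) (log2 fold change 1.02 ± 0.23 SE, adjusted p = 0.00128).

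Sugar and lipid metabolism genes were among the lists with more rises than falls, beside 18.0% higher and 15.5% lower over all tested genes. Of 32 tested glycolysis and hypoxia genes 16 were higher and 1 lower, with a median of 0.77; 10 were higher with either control library left out. Slc2a3, the glucose carrier of trophectoderm, measured 1052, 1228 and 1439 CPM on day 5, against 297 and 322 CPM in control (log2 fold change 2.00 ± 0.25 SE, adjusted p = 1.06e-06). Gpi1, the isomerase of the second step of glycolysis, averaged 263 ± 102 CPM on day 5 and 38.1 ± 12.1 CPM in control (SD). Vegfa, a hypoxia target, was the lower member, at 54.1 CPM on day 5 and 153 CPM in control. In cholesterol synthesis 14 of 24 were higher and 1 lower, with a median of 0.80; 7 and 6 were higher with control replicate 1 or 2 left out and 9 without day 5 replicate 3. Sqle, squalene epoxidase, measured 165, 118 and 161 CPM on day 5, against 45.6 and 45.3 CPM in control (log2 fold change 1.70 ± 0.27 SE, adjusted p = 3.48e-05). The median of the cholesterol list on day 5 was -0.15 over PlaB-treated 2D cells. Over day 1 blastoids it was -0.12, with 6 members higher and 10 lower. Lysosome genes were higher in 13 of 26 cases and lower in 2, with a median of 0.75; 5 and 7 were higher with control replicate 1 or 2 left out and 8 without day 5 replicate 3. Leaving out any 1 library left 0 or 1 of them lower.

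**Figure D3:**
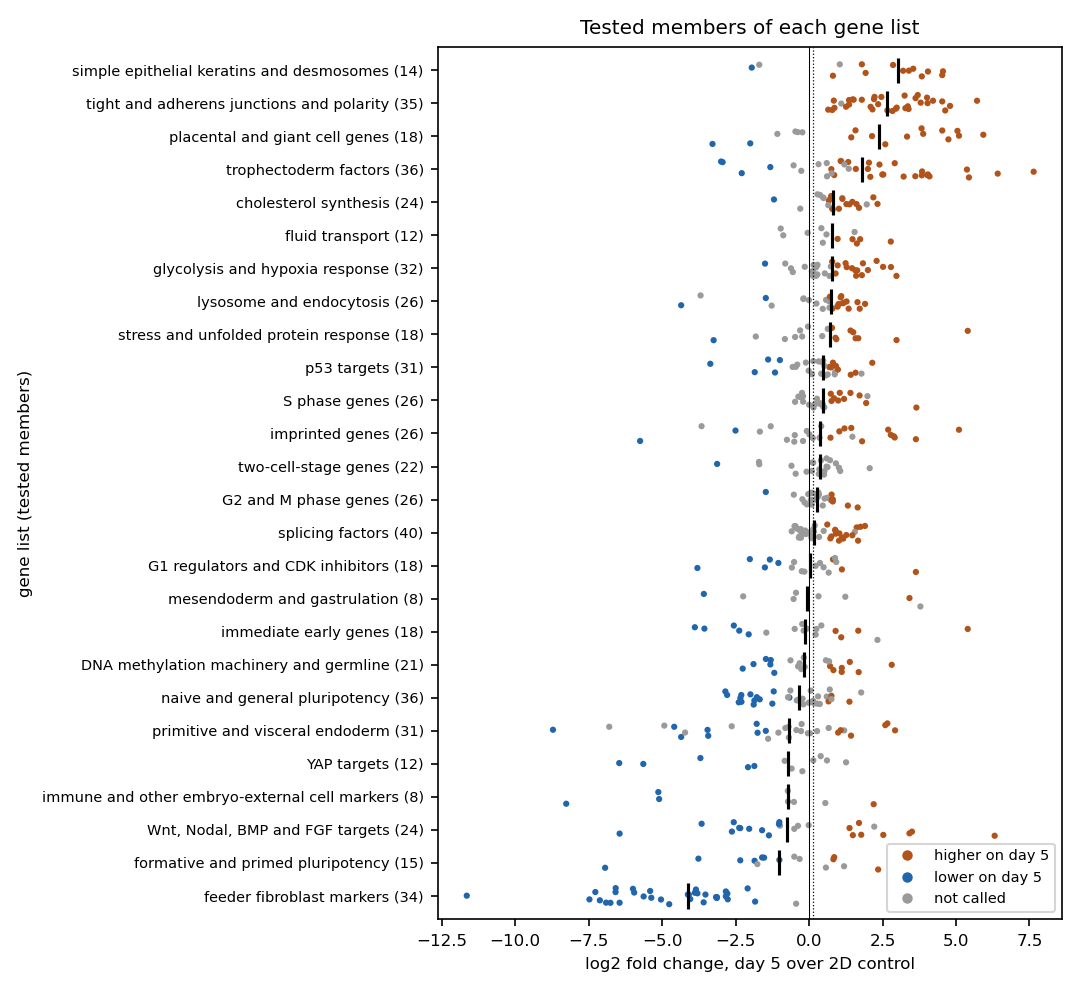
Log2 fold change, day 5 over 2D control, of the tested members of the 26 gene lists, ordered by median (black bar); orange points were higher, blue lower and grey not called, and the dotted line marks the median of all tested genes (0.13). Keratins, junctions, placental genes and trophectoderm factors have the highest medians and feeder markers the lowest (-4.11).

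Stress genes included a few steep rises. For the stress and immediate early lists the background over all tested genes was 18.0% higher and 15.5% lower. Of 18 tested members of the stress and unfolded protein response list 9 were higher and 1 lower, with a median of 0.71, and 5 were higher with either control library or day 5 replicate 3 left out, while the lower count was 0 without control replicate 2. Atf3, a stress-induced transcription factor that also ranks among immediate early genes, measured 72.2, 55.4 and 58.4 CPM on day 5, against 0.765 and 2.16 CPM in control (log2 fold change 5.40 ± 0.57 SE, adjusted p = 7.93e-08). Ppp1r15a (GADD34), which restarts translation, measured 35.5, 43.1 and 46.2 CPM on day 5, against 3.82 and 6.75 CPM in control (log2 fold change 2.98 ± 0.38 SE, adjusted p = 1.29e-06), and Atf4 averaged 216 ± 15.8 CPM on day 5 and 81.3 ± 9.77 CPM in control (SD). Of 18 immediate early genes 4 were higher and 5 lower, with a median of -0.13. Egr1, a growth factor-induced zinc finger factor, measured 13.9, 10.2 and 5.30 CPM on day 5, against 39.2 and 41.8 CPM in control (log2 fold change -2.05 ± 0.34 SE, adjusted p = 4.56e-05), opposite in direction to Atf3; 2 were higher with either control library left out, and 3 were lower without control replicate 1.

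For the cell cycle lists the background over all tested genes was 18.0% higher and 15.5% lower. In S phase 10 of 26 genes were higher and none lower (5 and 6 higher with control replicate 1 or 2 left out), and in G2 and M phase 6 of 26 were higher and 1 lower (2 higher with either left out), with medians of 0.47 and 0.27. Cdc6, which loads the replicative helicase, measured 92.6, 68.99 and 82.4 CPM on day 5, against 25.5 and 16.7 CPM in control (log2 fold change 1.94 ± 0.24 SE, adjusted p = 1.20e-06), and Mki67, the proliferation antigen Ki-67, averaged 339 ± 34.1 CPM on day 5 and 136 ± 20.8 CPM in control (SD). Ube2c, the mitotic ubiquitin-conjugating enzyme, fell by 1.47. Of 18 tested G1 regulators 3 were higher and 5 lower, with a median of 0.034, and 1 was higher without control replicate 1 or day 5 replicate 1. Among the lower was Ccnd2, cyclin D2, which fell by 3.80 and is also a feeder marker here.

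Enzymes that write and erase DNA methylation changed in both directions. Dnmt1, the maintenance methyltransferase, measured 93.4, 81.5 and 109 CPM on day 5, against 28.03 and 30.8 CPM in control (log2 fold change 1.69 ± 0.27 SE, adjusted p = 3.58e-05). Tet1, which oxidises methylcytosine, measured 119, 165 and 137 CPM on day 5, against 582 and 458 CPM in control (log2 fold change -1.89 ± 0.23 SE, adjusted p = 7.04e-07), and Tet2 fell by 1.18. Tet3 was called higher, a call lost at an adjusted p of 0.0778 without a filter on low counts, 0.0812 with GC correction, 0.0842 with both corrections, 0.0732 with control replicate 1 left out and 0.199 with control replicate 2 left out. Dnmt3l did not pass (adjusted p = 0.0983, and 0.0477 with day 5 replicate 1 left out), and Dnmt3b was called at 0.83, a call lost at an adjusted p of 0.0654 with control replicate 1 left out and 0.127 with control replicate 2 left out. The list, which also holds germline genes, had 7 of 21 higher and 6 lower, with a median of -0.18; 2 were higher with either control library left out and 4 without a filter on low counts.

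Day 1 blastoids come from the same table and the same 3D format as day 5, so the day 5 over day 1 change is given beside the change over 2D control for the genes above. The contrasts share the day 5 libraries. Against day 1, 3817 genes were higher on day 5 (23.4%) and 4232 lower (26.0%). Trophectoderm factors had 17 higher and 6 lower members and a median of 0.97, junction and polarity genes 21 higher and 2 lower with a median of 0.95, and naive and general pluripotency genes 3 higher and 24 lower with a median of -0.97. Feeder markers were still lower for 26 members, with a median of -2.87. Lysosome genes had 3 higher and 15 lower members and a median of -0.99, against 0.75 over 2D control. Other lists also had medians of opposite sign. S phase genes had 5 higher and 13 lower members and a median of -0.52, against 0.47 over control. Stress genes had 6 higher and 6 lower, with a median of -0.46 against 0.71. YAP targets had 5 higher and 3 lower, with a median of 0.70 against -0.71. Fluid transport genes had 3 higher and 4 lower, with a median of -0.13 against 0.78. The median of that list for day 1 over 2D control was 1.57.

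Side by side, Gata3 stood 3.48 above day 1 and 3.22 above control on the log2 scale, Rhox6 4.13 and 4.53, Krt8 1.92 and 4.56, and Nanog -3.03 and -2.34. The values of other genes had opposite signs. Id1 had -2.43 over day 1 and 1.38 over control, Cldn4 -1.72 and 3.28, Apoe -2.09 and 2.93, Gapdh -1.81 and 1.84, and Vegfa 2.01 and -1.50; each of these 10 values passed its test, and the Gapdh value over control lost its call at an adjusted p of 0.0772 with control replicate 1 left out. Pou5f1 averaged 38.7 CPM on day 1, 16.96 CPM in PlaB-treated 2D cells and 0.525 CPM in 2D control.

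**Figure D4:**
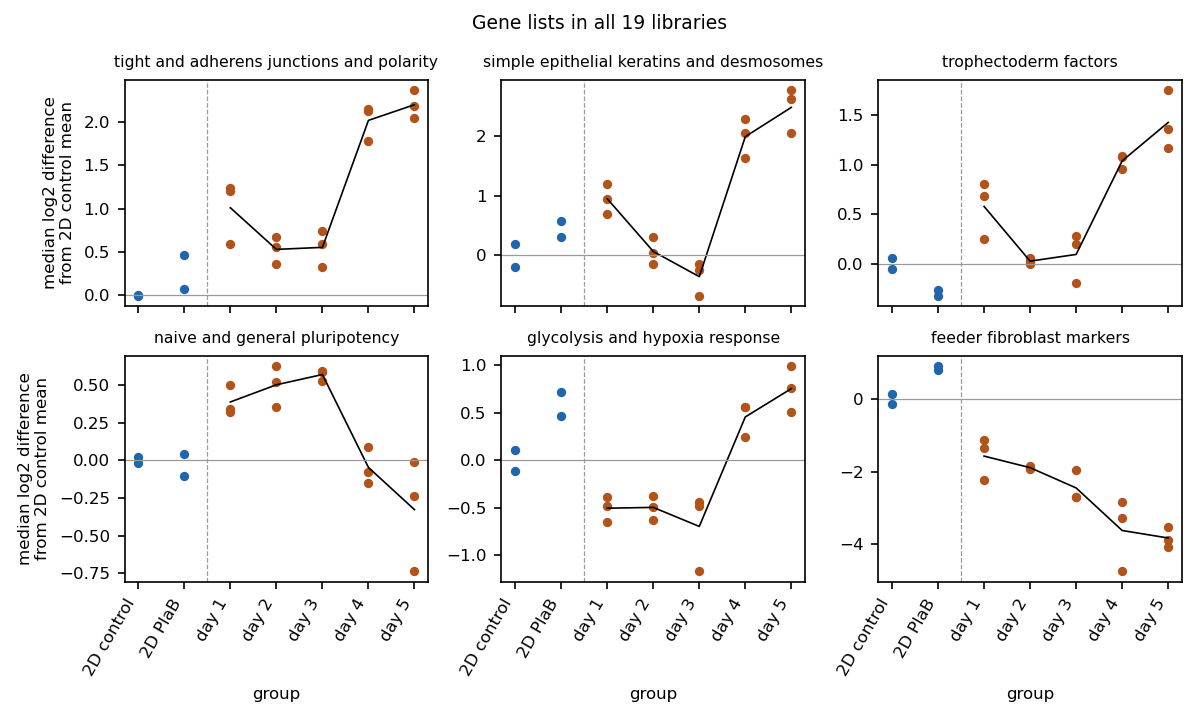
Median log2 difference from the 2D control mean over the tested members of 6 gene lists, 1 point per library, for 2D control, PlaB-treated 2D cells (blue) and blastoids of days 1 to 5 (orange, with a line through the day means). Junction, keratin and trophectoderm medians are highest on days 4 and 5, and feeder markers are below control on every blastoid day.

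The level of single genes on each day is given as the mean of 3 libraries. Rhox6 averaged 79.2, 101, 44.2, 937 and 1390.4 CPM on days 1 to 5. Krt8 averaged 89.6, 29.9, 10.5, 236 and 338 CPM over the same days. For both the day 3 mean was the lowest of the 5 and the day 4 mean was next to that of day 5. Serpinb9e averaged 0.577, 1.07, 1.25, 13.9 and 87.5 CPM and Cdkn1c 5.04, 2.86, 5.32, 40.04 and 111 CPM, both highest on day 5. Nanog averaged 312, 228, 151, 99.1 and 38.2 CPM, lower on each later day. Inhba, at 52.3, 44.1, 26.95, 3.02 and 1.61 CPM, was already far below 2D control (2562 CPM) on day 1.

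**Figure D5:**
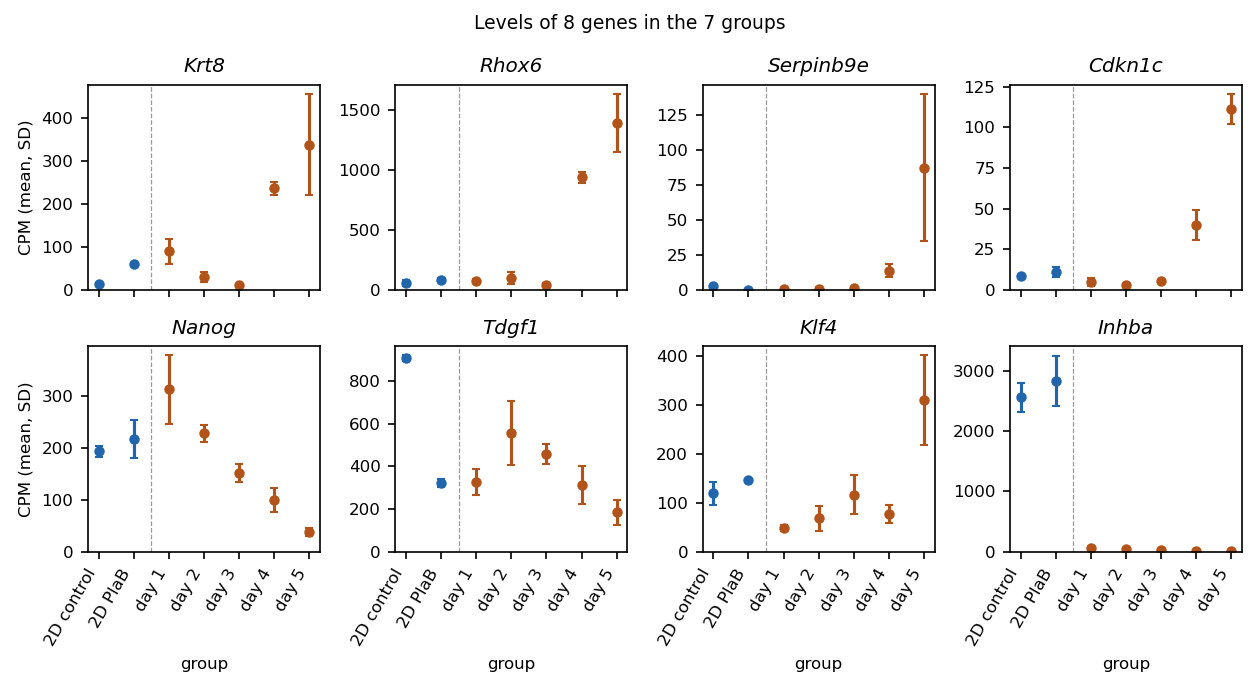
Mean level (CPM after TMM scaling; bars are SD over 2 libraries per 2D group and 3 per blastoid day) of 8 genes in 2D control, PlaB-treated 2D cells and blastoids of days 1 to 5. Krt8 and Rhox6 are high on days 4 and 5, Serpinb9e and Cdkn1c are highest on day 5, Nanog is lowest on day 5, and Inhba is high only in the 2D groups.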

How the data were processed

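RNA was measured by Smart-seq2 in 19 libraries, of which 5 are compared here. The deposited values are whole-number read counts per gene symbol in 2 tables, made by the authors with STAR 2.7.10b and HTSeq 0.13.5 on mm10, per the submitters' processing notes; neither annotation release nor strand setting is given in the sources used here. Both tables list the same 54352 symbols in the same order and were joined by symbol. Columns were matched to samples by title, and 0 columns were left unused; the description labels of the 2D and blastoid samples name each other's table, against the titles and column names. Reads carry no molecular identifiers, so intervals and floors cover counting error only, and totals of 3909958 to 5523515 counts limit precision for genes with few counts.

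From the counts, edgeR 4.0.16 in R 4.3.3 fitted all 19 libraries by group (TMM scaling; filterByExpr with a minimum count of 10 and total of 15; robust quasi-likelihood F-test; Benjamini-Hochberg adjustment over 16304 genes; threshold 0.05). SE is the absolute log2 fold change divided by the square root of F. The fit was tested on simulated data. DESeq2 1.42.0, limma 3.58.1 (voom), other scalings and filters, a replicate block, GC correction, thinning and leaving out each library were alternatives. Replicate numbers were not treated as pairs: only 2 numbers are shared, and the labels name no shared culture. Same-numbered libraries had correlations of deviations of 0.0359 and -0.0509. The deviations of 2 control libraries mirror each other, so these values cannot decide whether libraries were paired. A group at 0 was given a floor of 3 counts over the group, and ratios on 1 to 3 counts an exact 95% interval.

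Genes named by rule were the 10 largest changes in each direction with at least 10 CPM and no overlap, the 8 with at least 100 CPM, the 6 largest falls still at 50 CPM or more on day 5, a fixed set of lineage genes and, per gene list, at most 4 with the lowest adjusted p; other list members were named after their values were seen. The gene lists and the comparison were chosen with earlier results of these data known. Coordinates are from GENCODE M21 (GRCm38), where 53663 symbols matched 1 gene, 112 several and 577 none. Scripts used Python 3.11.15, pandas 2.3.3 and matplotlib 3.10.9.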

Additional observations from a re-analysis of the deposited data

How the results depend on the processing

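With 1 library left out at a time, 1415 to 2623 genes were higher on day 5 and 1739 to 2309 lower, against 2932 and 2526 with all 5 libraries. The low counts of higher genes, 1415 and 1565, came without control replicate 1 and 2, where 1 control library stood alone and was assumed to vary like the other groups. Other scalings, filters and tools, GC correction and thinning kept both counts within 1.5 times, among them DESeq2 with 2889 higher and 2688 lower and limma-voom with 2574 and 2522. A fit of the 5 libraries alone tested 12288 genes and called 2450 higher and 2651 lower. The median of all tested genes moved most without a filter, to 0, against 0.13. With a replicate block 2611 genes were higher and 2323 lower, and of 274 tested genes followed singly 270 kept their direction and side of the threshold and 4 lost their call. Those counts were 230 and 43 without control replicate 1, and 239 and 33 without control replicate 2; none of them reversed under the alternatives in which single genes were followed, which leave out limma-voom, thinning and the filter of 10 counts in every library and, in the fit of the 5 libraries alone, cover 250 genes. Depth limits what can be said of genes with few counts, among them Cdx2, Elf5, Gata4 and Sox17.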
